A study of Homo sapiens with 16 samples.

Results

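Expression of 44 genes of homologous recombination and the Fanconi anemia pathway was followed in SH-SY5Y cells, a human neuroblastoma line, after deletion of TRPM2 and after doxorubicin. The genes were chosen by their known function, and their rows were found by Ensembl identifier among 26410 measured genes. All 44 were found. Homologous recombination repairs a DNA double-strand break by copying an intact sister chromatid: the broken ends are resected, BRCA1, PALB2 and BRCA2 prepare the single strand for pairing with the intact copy, and the joined molecules are then dissolved or cut. The Fanconi anemia proteins sense crosslinks between the DNA strands, mark FANCD2 and FANCI with ubiquitin and pass the lesion to nucleases and to recombination. Doxorubicin poisons topoisomerase II and leaves such breaks.

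RNA was sequenced in 16 libraries. KO11 and KO28, the 2 clones labelled TRPM2 KO, were made with CRISPR-Cas9 and a guide against TRPM2. Scr13 and Scr16, the 2 control clones, received a scrambled guide. Both kinds of clone were transfected with the same donor vector carrying GFP and a puromycin marker, and were selected in puromycin and grown from single cells. Each clone gave 2 replicates in regular medium and 2 after 24 h in medium with 0.3 µM doxorubicin, so that each of the 4 groups held 4 libraries from 2 clones. The series' design text gives 3 µM in place of the 0.3 µM of the sample labels and the study's methods. Replicates of a clone are called biological in the study's methods, and only 2 clones stand for each genotype.

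The libraries held 10481177 to 25086085 reads on genes. In the study's methods the deletion covers the start of the TRPM2 coding sequence and puts the remainder out of frame, so reads summed over the whole gene do not check it. Those reads were higher in the libraries labelled TRPM2 KO. Untreated libraries labelled TRPM2 KO had 1.93, 2.23, 1.41 and 2.19 normalised CPM (counts scaled to an effective library size), whereas the untreated Scr libraries had 0.118, 0.115, 0 and 0. After doxorubicin the values were 1.22, 1.83, 1.37 and 0.658 in TRPM2 KO and 0.0594, 0.0631, 1.33 and 0.39 in Scr. These groups overlapped, and the log2 difference of 0.69 did not pass. The cause was not tested, and genotype below means the libraries as labelled. One library stood apart. In replicate 1 of doxorubicin-treated Scr16, the library with the fewest reads, 85 of 13454 genes with a median of at least 1.5 normalised CPM had 0 reads, against at most 20 in any other library. FAN1 was among these, with 0 reads there. Results for treated Scr cells were therefore also computed without it.

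The members were expressed over a wide range in untreated Scr cells. Per kilobase of exon, the highest levels were those of UBE2T, the conjugating enzyme that ubiquitinates FANCD2, at 47.8 normalised CPM per kb, and of the resection nuclease EXO1, at 36.3. The lowest were the crosslink nuclease FAN1 at 0.395 and RAD51B, a recombination gene, at 0.276. Over the 4 libraries of a group, the median coefficient of variation of a member was 8.85% in untreated and 11.95% in treated Scr. It was 9.87% in untreated and 9.74% in treated TRPM2 KO libraries. Each group held 2 clones, so these values include differences between clones as well as between replicates.

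The first question was how these genes responded to doxorubicin within each genotype. In Scr cells 10 of the 44 genes fell and 0 rose at an adjusted p under 0.05 (limma). Among all 14378 genes tested there, 4.92% fell and 11.4% changed in either direction. In cells labelled TRPM2 KO, 13 fell and 1 rose, where 7.24% of 14513 genes fell, 10.3% rose and 17.5% changed. The median log2 change of the 44 genes was -0.23 in Scr and -0.21 in TRPM2 KO, beside -0.01 and 0.02 over all genes tested. Without the library that stood apart, 10 members again passed in Scr, beside 11.5% of all genes, with RMI1 in place of BRIP1. With reads summed per clone, 9 members passed in Scr and 10 in TRPM2 KO, beside 9.91% and 11.6% of all genes. Without clone Scr13, 1 member (2.33%) passed in Scr, beside 1.88% of all genes, and without clone Scr16, 1 (2.27%), beside 5.64%. With either Scr clone left out, the members' share in Scr was thus near or below that of all genes. Without KO11, 5 (11.6%) passed in TRPM2 KO, beside 7.23% of all genes, and without KO28, 15 (34.9%), beside 15.8%. The count also fell to 6 (13.6%) in Scr without replicate 1 of untreated Scr16, beside 7.68% of all genes. In TRPM2 KO it fell to 9 (20.5%) without replicate 2 of treated KO28, beside 14%. Treated and untreated libraries did not overlap for 14 lower and 2 higher members in Scr, beside 17.2% of all genes, and for 14 lower and 1 higher member in TRPM2 KO, beside 19.7%.

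Of the members, 9 fell in both genotypes, which is 20.5% of the 44, beside 2.93% of 14033 genes tested in both. These were BRCA1, BRCA2, BRIP1, XRCC2, MCM8, FANCD2, NBN, EXO1 and GEN1. MRE11 passed in Scr alone, and BLM, DNA2, RMI1, UBE2T and RAD51C in TRPM2 KO alone, except that RMI1 also passed in Scr without the library that stood apart, and MRE11 in TRPM2 KO without clone KO28. Passing in one genotype alone does not show a difference between the genotypes, and the test of that difference is given further on. By clone, 23 members had a lower mean after doxorubicin in all 4 clones, and 2 in none. The same share over all genes was not computed, so these counts only describe the members. Across the 44 genes the changes in Scr and TRPM2 KO, which share no library, had a Pearson r of 0.455 and a Spearman rho of 0.486, beside 0.659 and 0.581 over all genes tested in both. These values are across genes, which are not independent replicates, and all genes of a comparison share its libraries.

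**Figure D1:**
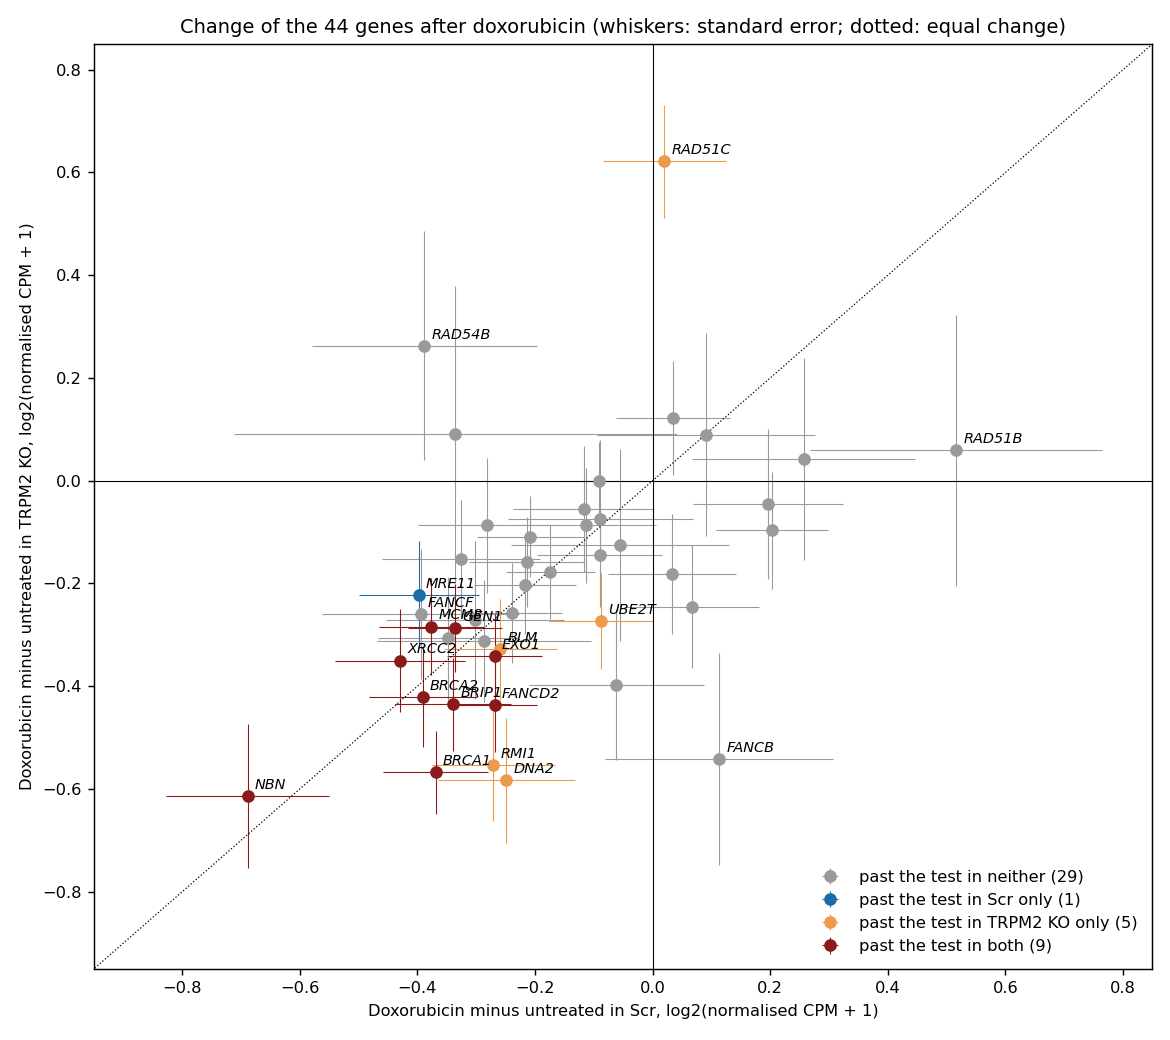
Change after doxorubicin in Scr (horizontal axis) against TRPM2 KO (vertical axis) for each of the 44 genes, as log2(normalised CPM + 1) with standard errors from limma over 8 libraries each; the dotted line marks equal change. The 9 genes past the test in both genotypes lie in the lower left, NBN farthest, and RAD51C lies alone at the top, near 0 in Scr and at 0.62 in TRPM2 KO.

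The MRE11, RAD50 and NBN proteins form the complex that first binds a broken end. NBN, which links this complex to the ATM kinase, had the largest fall of any member in both genotypes. Its level in untreated Scr was 37.0 and 32.9 normalised CPM in Scr13 and 36.3 and 37.5 in Scr16. After doxorubicin it was 18.8 and 17.5 in Scr13 and 26.2 and 26.7 in Scr16. Every treated Scr library was below every untreated one, and Scr13 was lower than Scr16 among the treated. The log2 change was -0.69 ± 0.14 (SE; limma adjusted p = 0.00313), a level 0.62 times that before.

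In KO11, NBN went from 39.4 and 29.8 to 17.7 and 23.4 normalised CPM, and in KO28 from 26.0 and 36.7 to 20.8 and 21.9. The treated and untreated libraries did not overlap here either. The log2 change was -0.61 ± 0.14 (SE; limma adjusted p = 0.00286). NBN overlaps DECR1 on the opposite strand, and whether strand was used in counting is not given in the sources used here. MRE11, the nuclease of the complex, changed by -0.40 ± 0.10 on the log2 scale in Scr (limma adjusted p = 0.0166), a call lost without replicate 1 of untreated Scr13 or replicate 2 of untreated Scr16. RAD50 had log2 estimates of -0.09 in Scr and close to 0 in TRPM2 KO and did not pass. Of the nucleases and helicases that extend resection, EXO1 fell by 0.27 in Scr and 0.34 in TRPM2 KO (limma adjusted p = 0.0373 and 0.00447). Its call in Scr was lost with reads summed per clone and without replicate 2 of untreated Scr13, replicate 1 of treated Scr13 or either replicate of untreated Scr16. DNA2 passed in TRPM2 KO at -0.58 ± 0.12 (limma adjusted p = 0.00132).

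The BRCA group held 3 falls of 5 genes in each genotype. BRCA1, the ubiquitin ligase that promotes resection and recruits PALB2, stood at 133.1 and 140.5 normalised CPM in untreated Scr13 and at 161 and 133 in untreated Scr16. Treated values were 96.3 and 124.9 in Scr13 and 105.4 and 113.6 in Scr16, all below the untreated. The log2 change in Scr was -0.37 ± 0.09 (SE; limma adjusted p = 0.0116), and -0.30 without replicate 1 of untreated Scr16 (limma adjusted p = 0.0522). In TRPM2 KO libraries BRCA1 went from 136.4 and 146.2 to 87.2 and 96.1 in KO11. In KO28 it went from 132.4 and 124.7 to 92.4 and 86.3, again with no overlap. The log2 change was -0.57 ± 0.08 (SE; limma adjusted p = 1.6e-05), a level 0.675 times that before.

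BRCA2 acts on the resected strand. In Scr13 it went from 78.9 and 95.2 to 77.4 and 66.7 normalised CPM, and in Scr16 from 97.2 and 86.4 to 65.3 and 62.97. The lowest untreated Scr library lay only just above the highest treated one, both from Scr13. In KO11 the values went from 82.3 and 82.4 to 56.9 and 52.7, and in KO28 from 73.8 and 67.0 to 63.3 and 53.5. The log2 changes were -0.39 ± 0.09 in Scr and -0.42 ± 0.10 in TRPM2 KO (SE; limma adjusted p = 0.00931 and 0.00283).

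BRIP1 is the helicase that binds BRCA1. Its untreated Scr levels were 152.4, 163.5, 153.7 and 137.5 normalised CPM, and its treated ones 122.3, 132.8, 95.1 and 133.6. The value of 95.1 came from the library that stood apart, and without that library the change in Scr was -0.22 with a limma adjusted p of 0.068. The call was also lost without replicate 1 or 2 of untreated Scr13, replicate 1 of treated Scr13 or replicate 1 of untreated Scr16 (limma adjusted p = 0.0628 to 0.0938). In TRPM2 KO it went from 148.4, 134, 115.1 and 131.9 to 103.9, 105.6, 95.3 and 84.7. Treated and untreated libraries did not overlap in either genotype, and the log2 changes were -0.34 ± 0.10 and -0.44 ± 0.09 (SE; limma adjusted p = 0.0322 and 0.00131).

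PALB2, the bridge between BRCA1 and BRCA2, did not pass in any comparison. Its values were 28.1, 32.0, 31.4 and 26.5 normalised CPM in untreated Scr and 31.8, 28.8, 34.5 and 28.95 in treated Scr. They were 28.1, 31.3, 36.6 and 32.5 in untreated TRPM2 KO and 25.0, 25.4, 29.4 and 27.4 in treated TRPM2 KO. The groups overlapped within each genotype. The log2 change was 0.07 in Scr (95% interval -0.17 to 0.31) and -0.25 in TRPM2 KO (-0.49 to 0.00).

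RAD51B, RAD51C, RAD51D, XRCC2 and XRCC3 form complexes that support strand pairing, and these 5 genes did not move together. XRCC2 fell in both genotypes. In Scr13 it went from 76.6 and 87.6 to 76.0 and 68.0 normalised CPM, and in Scr16 from 94.5 and 89.3 to 50.5 and 65.7. In KO11 it went from 92.8 and 85.4 to 62.4 and 60.7, and in KO28 from 82.8 and 73.8 to 79.9 and 59.3. The KO groups overlapped, because replicate 1 of treated KO28 stayed among the untreated values. The log2 changes were -0.43 ± 0.11 in Scr and -0.35 ± 0.10 in TRPM2 KO (SE; limma adjusted p = 0.0166 and 0.0168). The call in Scr was lost without replicate 1 of untreated Scr16 (limma adjusted p = 0.0645). That in TRPM2 KO was lost without replicate 1 of untreated KO11, either replicate of treated KO11 or replicate 2 of treated KO28 (limma adjusted p = 0.0511 to 0.0642).

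RAD51C, which occurs in both kinds of these complexes, was the only member that rose. In KO11 it went from 44.5 and 39.0 to 60.2 and 69.0 normalised CPM, and in KO28 from 43.6 and 32.5 to 56.0 and 60.9. The treated libraries of both clones were above all untreated ones, and the log2 change was 0.62 ± 0.11 (SE; limma adjusted p = 0.00023), a level 1.54 times that before. In Scr the values were 44.2, 46.4, 44.7 and 36.9 without and 43.8, 48.3, 39.8 and 42.9 with doxorubicin. These groups overlapped, with a log2 change of 0.02 (95% interval -0.20 to 0.24). RAD51B, with 28 to 67 reads in an untreated Scr library, had a log2 estimate of 0.52 in Scr and did not pass.

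Of the 7 strand exchange partners, MCM8, part of a helicase that aids repair synthesis, fell by 0.38 in Scr and 0.28 in TRPM2 KO on the log2 scale (limma adjusted p = 0.0104 and 0.037). Its call in TRPM2 KO was lost in 6 of the 8 fits that left out a single library. It held without replicate 1 of treated KO11 or replicate 2 of untreated KO28. Its call in Scr was lost in 0 of 8. With reads summed per clone the call of MCM8 was lost in TRPM2 KO and held in Scr. None of the others, among them RAD52 and RAD54L, passed after doxorubicin. The Fanconi core complex, which carries the ligase that acts on FANCD2, was grouped with its conjugating enzyme UBE2T. This group had 0 calls of 9 genes in Scr and 1 in TRPM2 KO, that of UBE2T at -0.27 ± 0.09 (limma adjusted p = 0.0447). This call too was lost in 6 of the 8 fits that left out a single library. It held without replicate 2 of treated KO11 or replicate 2 of untreated KO28, and was lost with reads summed per clone. FANCB had a change of -0.54 in TRPM2 KO and did not pass.

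FANCD2 is the protein on which the pathway converges. In Scr13 it went from 130.3 and 130.2 to 104.5 and 115.5 normalised CPM, and in Scr16 from 128.9 and 133.8 to 102.6 and 112.7. In KO11 it went from 116.2 and 126.6 to 87.9 and 97.5, and in KO28 from 133.2 and 108 to 95.03 and 75.9. No treated library reached an untreated one of its genotype. The log2 changes were -0.27 ± 0.07 in Scr and -0.44 ± 0.09 in TRPM2 KO (SE; limma adjusted p = 0.0202 and 0.00144). The call in Scr was lost without replicate 1 of untreated or treated Scr13 or replicate 2 of untreated Scr16 (limma adjusted p = 0.0504 to 0.0606). Its partner FANCI, the member with the most reads over the 16 libraries, and the deubiquitinase USP1 did not pass in either genotype.

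In the complex that dissolves joined molecules, RMI1, a scaffold for the helicase BLM, went from 50.0 and 44.5 to 29.8 and 33.7 normalised CPM in KO11. In KO28 it went from 42.3 and 43.2 to 30.1 and 27.6. The groups did not overlap, and the log2 change was -0.55 ± 0.11 (SE; limma adjusted p = 0.000737). In Scr the values were 48.6, 49.6, 50.3 and 46.4 without and 37.2, 41.1, 48.3 and 35.6 with doxorubicin, with 48.3 in the library that stood apart. The change of -0.27 in Scr did not pass with all libraries, but it passed without that one. BLM itself changed by -0.33 ± 0.10 in TRPM2 KO (limma adjusted p = 0.0209). This call was lost with reads summed per clone and in 4 of the 8 fits that left out a single library. Of the nucleases that cut joined molecules, GEN1 fell by 0.34 in Scr and 0.29 in TRPM2 KO (limma adjusted p = 0.00985 and 0.0219), whereas MUS81, EME1 and SLX4 did not pass. The call of GEN1 in TRPM2 KO was lost in 3 of 8 such fits and with reads summed per clone.

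**Figure D2:**
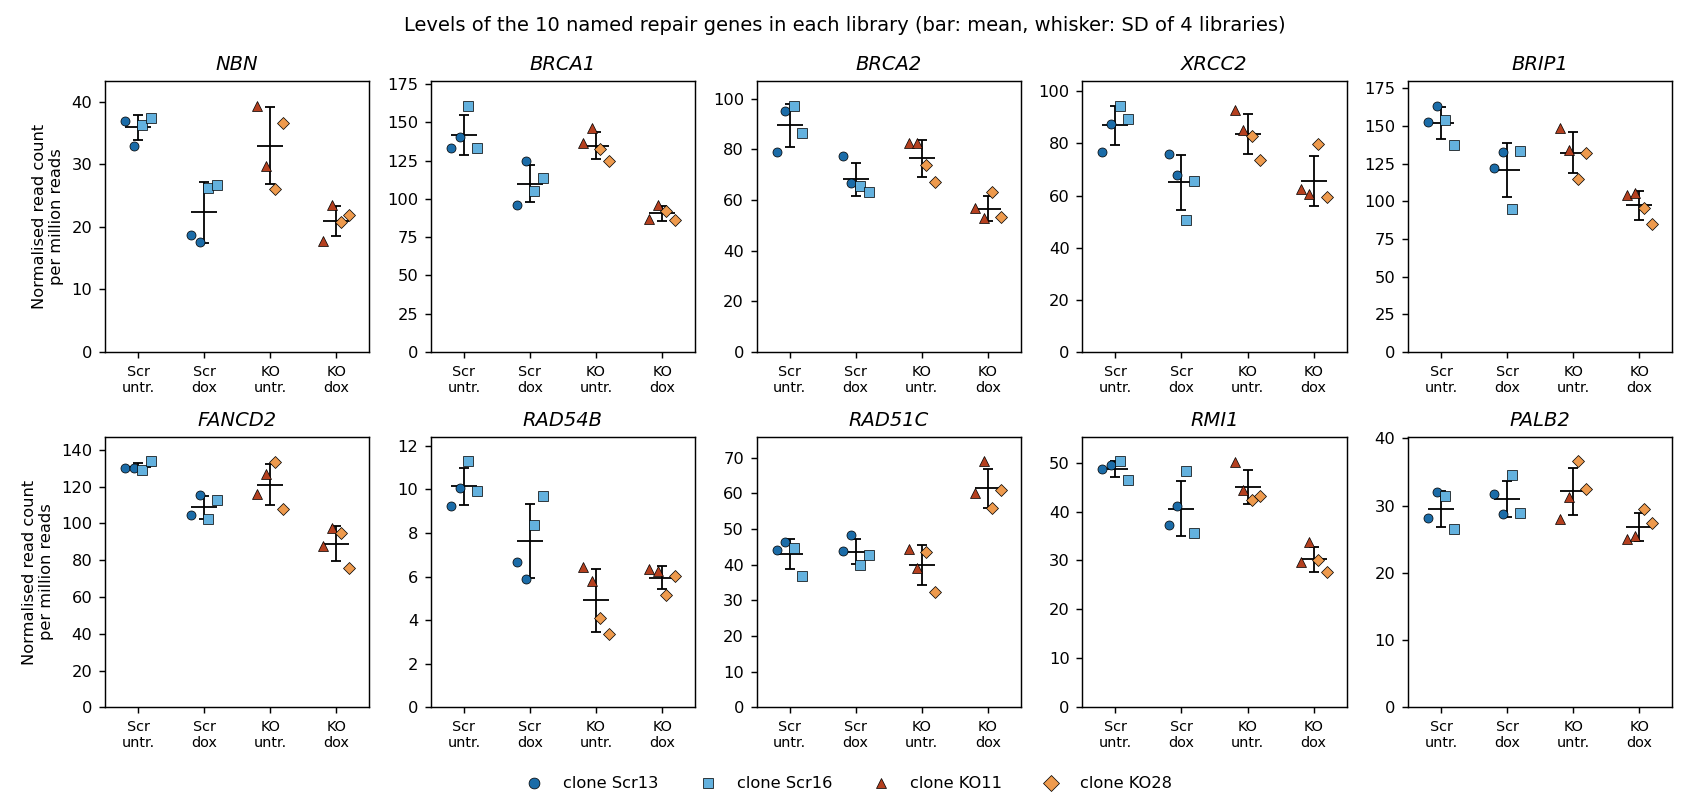
Normalised CPM in each library for the 10 genes given by library in the text, from 0 on each axis; symbols mark the clone, and the horizontal bar and whisker give the mean and SD of 4 libraries. NBN, BRCA1 and BRCA2 drop in both genotypes after doxorubicin, RAD51C is higher in treated TRPM2 KO libraries than in every other library, and RAD54B is lowest in untreated KO28.

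The start sites of the genes were searched for short words that they share. The RefSeq promoter windows (GRCh38.p14, 250 bases before to 50 after the start) covered 38 of the 44 genes. RAD54B, FANCI, NBN, DNA2, RMI2 and WRN had no entry. The words TTTCGCGC, TTTGGCGC and TTTCCCGC, which resemble the binding element of E2F factors, regulators of genes for DNA synthesis, were searched on both strands. They occurred in 6 of 38 members (15.8%), beside 3.3% of all RefSeq symbols. They were in 5 of the 8 members that fell in both genotypes and had a window, and in 1 of the 30 others. The windows of BRCA1 and RAD51B are in these counts although no GENCODE transcript of either gene begins within 1 kb of them. Without both, the words were in 5 of 7 members that fell in both genotypes and in 6 of 36 members, and CCAAT was in 18 of 36. Those 5, XRCC2, MCM8, FANCD2, EXO1 and GEN1, each lost the call in 1 genotype in 3 to 6 of 8 single-library omissions. Among the members without the words, BRIP1 lost its call in Scr in 5 of 8, BRCA1 in 1 and BRCA2 in 0. With reads summed per clone EXO1 did not pass in Scr, nor MCM8 and GEN1 in TRPM2 KO. Of the 5, only XRCC2 and FANCD2 then fell in both genotypes. Over all genes with a window, 13.9% of the 330 that fell in both genotypes held such a word, beside 5.64% of 10260 tested and 3.4% of the 500 that rose in both. The matches are shown, 30 bases each in the direction of transcription, with the word in capitals.
XRCC2, chr7:152676102-152676131, minus strand: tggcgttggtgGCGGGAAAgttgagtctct
FANCD2, chr3:10026424-10026453, plus strand: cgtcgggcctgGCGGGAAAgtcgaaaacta
MCM8, chr20:5950667-5950696, plus strand: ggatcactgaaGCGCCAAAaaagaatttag
EXO1, chr1:241848197-241848226, plus strand: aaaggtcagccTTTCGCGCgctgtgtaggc
GEN1, chr2:17753859-17753888, plus strand: cagttgcggggTTTCGCGCcgccggagtct
FANCC, chr9:95317863-95317892, minus strand: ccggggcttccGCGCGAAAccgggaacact
FANCC, chr9:95317737-95317766, minus strand: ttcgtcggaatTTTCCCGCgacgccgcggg
The first 5 lines are genes that fell in both genotypes, and FANCC did not pass in either. The words of XRCC2, MCM8, EXO1 and GEN1 lie just after the start, and that of FANCD2 lies across it. Their shared letters are a description of these windows, and binding was not measured. The word TTTGAA, as in the element of cell cycle genes called CHR, was in 5 of 38 members (13.2%), beside 13.3% of genes tested in both genotypes and 18.2% of all symbols. The word CCAAT, bound by NF-Y, was in 19 of 38, beside 43.4% of tested genes, 55.2% of those that fell in both genotypes and 39.7% of all symbols.

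BRCA2, which came after NBN and BRCA1 by mean change over both genotypes among the genes that fell in both, and RAD51C, which rose, held none of the E2F-type words. Their upstream bases are printed for comparison, with any of the 3 kinds of word in capitals. RAD51C was chosen for this after its values were seen.
BRCA2, chr13:32315345-32315473, plus strand: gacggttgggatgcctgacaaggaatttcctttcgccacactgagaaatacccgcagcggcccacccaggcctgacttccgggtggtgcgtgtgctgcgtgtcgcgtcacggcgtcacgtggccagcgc
RAD51C, chr17:58692373-58692572, plus strand: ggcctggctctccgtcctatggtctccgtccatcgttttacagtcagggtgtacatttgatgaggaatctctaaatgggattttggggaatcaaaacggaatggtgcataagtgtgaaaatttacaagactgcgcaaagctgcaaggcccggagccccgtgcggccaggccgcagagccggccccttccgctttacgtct
Neither stretch holds one.

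The second question was whether libraries labelled TRPM2 KO differed from Scr in these genes. Without treatment 1 of 44 members passed, and it was lower, where 2.54% of 14364 genes were lower and 4.84% changed in either direction. After doxorubicin 2 members were lower and 1 was higher, where 4.17% of 14572 genes were lower, 4.52% higher and 8.69% changed. The members' counts were near these shares, but the count after doxorubicin moved with the setting. It was 8 (18.2%), of which 7 were lower, with a single fit over 16 libraries, where 9.65% of all genes passed and 4.67% were lower. It was 6 (13.6%) with library size alone, DESeq2 or clone as a random block, where 8.91%, 10% and 10.4% of all genes passed. The correlation within clones estimated for that block was negative, -0.0987, so that fit was no stricter than one that ignores clone. With reads summed per clone the count was 4 (9.09%), where 7.72% of all genes passed. EME1, gained with clone as a random block, and RMI1 did not pass in the summed fit. It was 1 without replicate 1 of treated KO11, replicate 2 of treated Scr13 or replicate 2 of treated KO28. The median log2 difference of the 44 genes was -0.09 without treatment and -0.13 after doxorubicin, beside -0.01 and 0.01 over all genes. The estimates were below 0 for 36 of 44 members without treatment and for 37 after doxorubicin. Over all genes they were below 0 for 7447 of 14364 and for 6900 of 14572. After doxorubicin the genotypes did not overlap for 4 lower and 1 higher member, beside 13.2% of all genes.

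RAD54B, a DNA translocase related to RAD54L, was the member that differed without treatment. It had 6.45 and 5.78 normalised CPM in KO11, 4.09 and 3.36 in KO28, 9.25 and 10.1 in Scr13, and 11.3 and 9.94 in Scr16. Every library labelled TRPM2 KO was below every Scr library, with KO28 lowest. The log2 difference was -0.94 ± 0.20 (SE; limma adjusted p = 0.00692), a level 0.52 times that of Scr on the log2(normalised CPM + 1) scale. After doxorubicin it was 6.34, 6.24, 5.17 and 6.04 in TRPM2 KO and 6.65, 5.87, 8.37 and 9.67 in Scr. These groups overlapped, with a difference of -0.30 (95% interval -0.74 to 0.14). Without Scr13, Scr16 or KO28 the difference of RAD54B lay between -1.003 and -0.65 and did not pass (limma adjusted p = 0.0767, 0.145 and 0.0728). RAD54B shares exon sequence on its strand with FSBP, so its reads may be split with that gene.

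After doxorubicin RAD51C, with the library values given above, was higher in every library labelled TRPM2 KO than in any Scr library. The log2 difference was 0.48 ± 0.10 (SE; limma adjusted p = 0.00233), a level 1.40 times that of Scr, and without treatment it was -0.11 (95% interval -0.35 to 0.13). FANCD2 and RMI1 were lower after doxorubicin, by -0.29 ± 0.09 and -0.40 ± 0.12 on the log2 scale (SE; limma adjusted p = 0.0414 and 0.0345). For both, all 4 libraries labelled TRPM2 KO were below all 4 Scr libraries. The exact permutation p of each of these differences was 0.0286, two-sided, the smallest that 4 against 4 libraries allow. This test exchanges libraries and takes no account of clone. Over clone means the exact permutation p of each was 0.333, two-sided, the smallest that 2 against 2 clones allow. Without the library that stood apart, FANCD2 was at -0.32 (limma adjusted p = 0.0296) and RMI1 at -0.32 (limma adjusted p = 0.0926). BRCA1 then passed at -0.29 (limma adjusted p = 0.0461), where with all libraries it was at -0.27 (limma adjusted p = 0.0523). BRCA1 passed in 9 of 24 alternative settings in all, among them the replicate block (limma adjusted p = 0.0351) and reads summed per clone (0.0355). Another was clone as a random block (limma adjusted p = 0.0311). The correlation within clones for that block was negative, -0.0987, so that fit was no stricter than one that ignores clone. BRIP1, at -0.30 with all libraries (limma adjusted p = 0.0728), passed in 7 of 24, among them the fit without the library that stood apart. FANCD2 and RMI1 each lost the call in 11 of 24 alternative settings, with limma adjusted p of up to 0.326. For both these included leaving out replicate 1 of treated KO11, replicate 2 of treated Scr13 or replicate 2 of treated KO28. For FANCD2 they also included replicate 1 of treated Scr13 and replicate 2 of treated Scr16. RMI1 also lost the call without replicate 1 of treated KO28 and with reads summed per clone, where FANCD2 passed. RAD51C lost it in 1, without clone KO11, at 0.41 (limma adjusted p = 0.11).

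**Figure D3:**
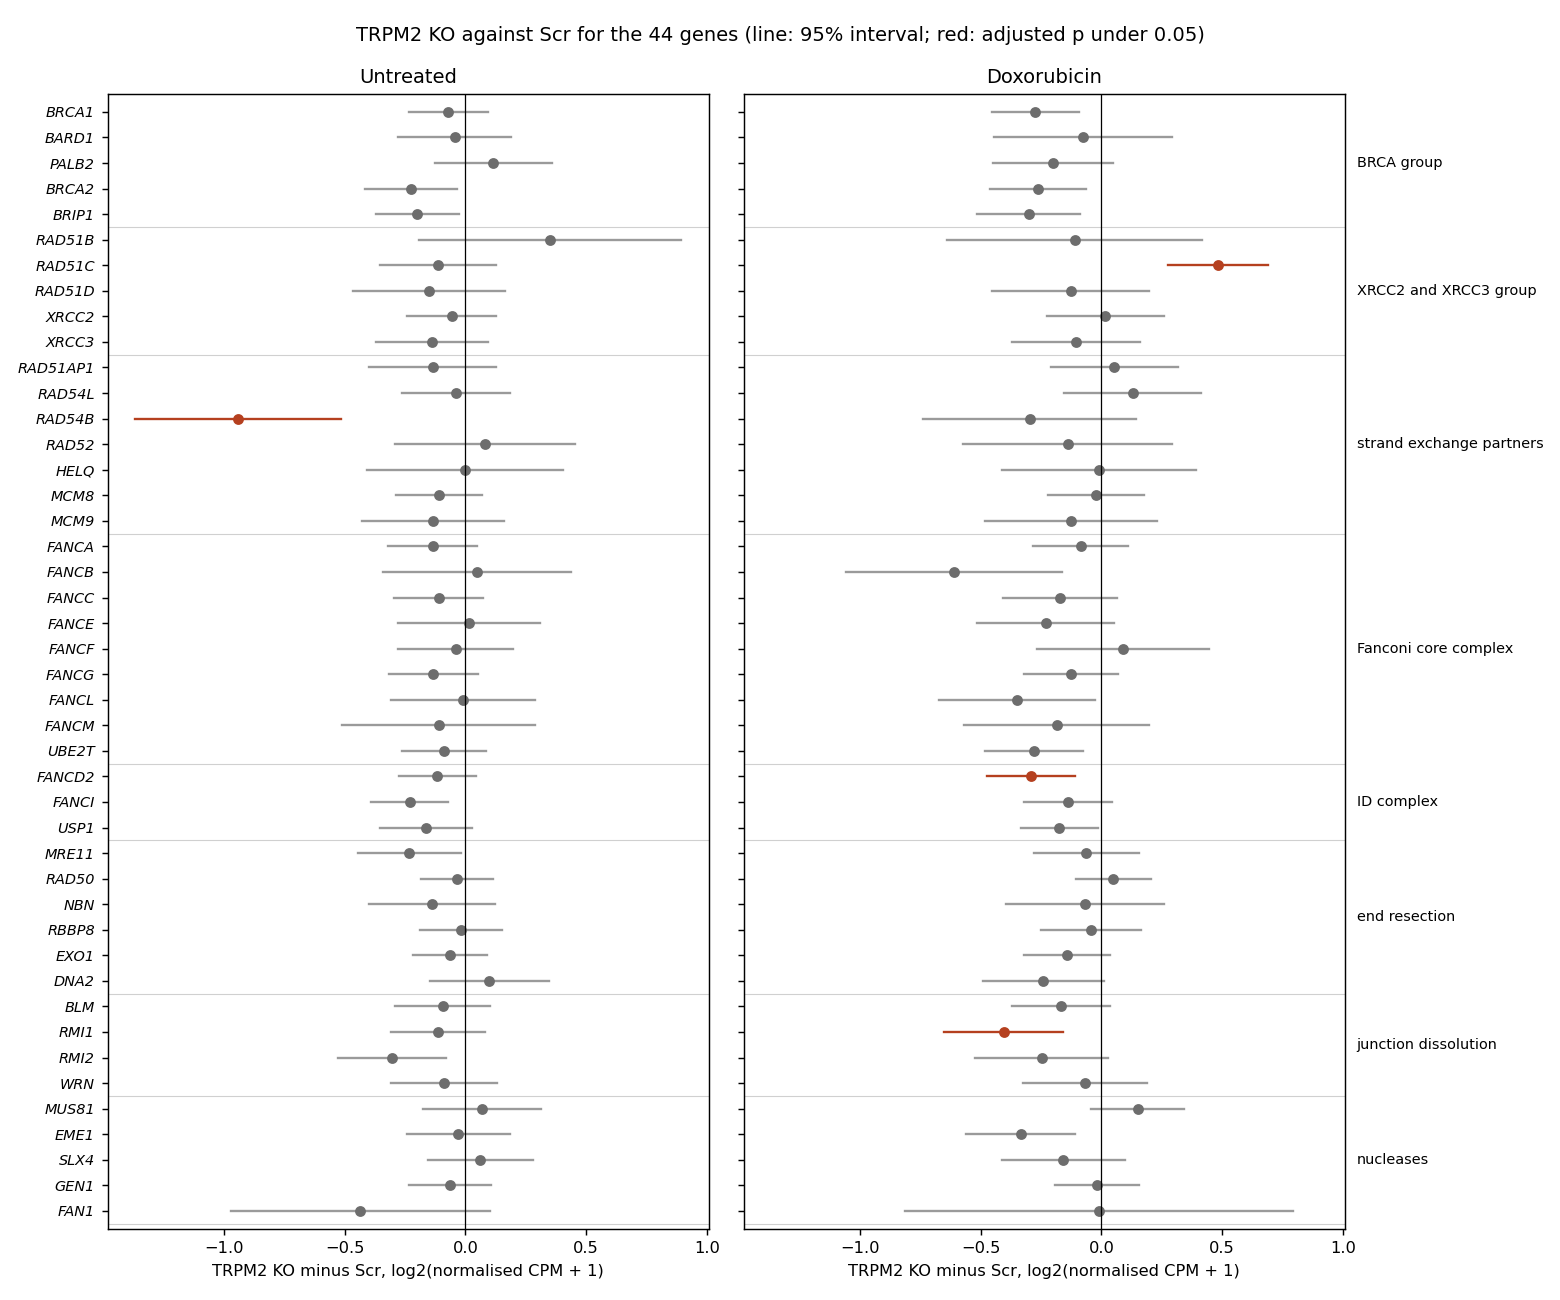
Log2 difference between libraries labelled TRPM2 KO and Scr for the 44 genes grouped by role, without treatment (left) and after doxorubicin (right), as points with 95% intervals from limma over 8 libraries each; red marks an adjusted p under 0.05. RAD54B at -0.94 is the red point without treatment, and RAD51C, FANCD2 and RMI1 are those after doxorubicin; most points lie left of 0.

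Whether doxorubicin acted differently in the genotypes was tested as the interaction over all 16 libraries. None of the 44 genes passed (limma), where 3 of 15325 genes (0.0196%) did and 1147 had an unadjusted p under 0.05. RAD51C had an interaction of 0.60 ± 0.15 on the log2 scale (95% interval 0.29 to 0.92, limma adjusted p = 0.207), so that its rise in TRPM2 KO alone was not shown to differ from Scr after adjustment. Its change was 0.62 in both KO11 and KO28, and 0.03 in Scr13 and 0.01 in Scr16. The interaction of RAD54B was 0.65 (95% interval 0.05 to 1.25) and that of RMI1 -0.28 (-0.59 to 0.02), neither past the test.

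A second list held 36 further genes of these pathways, of which 35 had a row and 33 were tested. After doxorubicin 1 rose and 5 fell in Scr, and 3 rose and 6 fell in TRPM2 KO. These are 18.2% and 27.3% of the genes tested on the list, beside 11.4% and 17.5% of all genes. The rises in TRPM2 KO, 9.09%, were near the 10.3% of all genes. REV3L, the catalytic subunit of the translesion polymerase zeta, rose in both, from 94.3 ± 2.2 to 123.6 ± 11.8 normalised CPM in Scr and from 95.9 ± 14.1 to 151.4 ± 18 in TRPM2 KO (SD, n = 4). The log2 changes were 0.38 and 0.66 (limma adjusted p = 0.00372 and 5.17e-05). In TRPM2 KO, UIMC1, which brings BRCA1 to ubiquitin chains, rose by 0.44, and FAAP20, a core complex subunit, by 0.29 (limma adjusted p = 0.0106 and 0.0266). The falls in Scr were largest for FIRRM at -0.47, CENPX at -0.42 and RPA3 at -0.42 (limma adjusted p = 0.00855, 0.0176 and 0.0214). RPA3 is a subunit of the protein that coats the resected strand. The falls in TRPM2 KO were largest for FIGNL1 at -0.42, FIRRM at -0.39 and CENPX at -0.38 (limma adjusted p = 0.00586, 0.0157 and 0.0417). None of the 33 passed between the genotypes in either treatment (limma).

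Levels of recombination genes vary over the cell cycle, so 3 lists of 10 genes were read beside them. In the 16 libraries, the summed level of the 44 members was 2721 ± 99.6 normalised CPM in untreated Scr and 2342 ± 80 in treated Scr, a ratio of 0.861. It was 2532 ± 102 in untreated and 2147 ± 78.3 in treated TRPM2 KO libraries, a ratio of 0.848 (SD, n = 4). In each genotype every treated library was below every untreated one. FANCI contributed the most reads.

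The S phase list fell along with them. Of its 10 genes, 8 fell in Scr and 7 in TRPM2 KO, among them MCM6, a subunit of the replicative helicase, at -0.71 and -1.02 on the log2 scale (limma adjusted p = 3.19e-06 and 1.53e-09). Its summed level went from 2362 to 1768 normalised CPM in Scr and from 2113 to 1533 in TRPM2 KO. Between the genotypes, 1 of its 10 genes (MCM2) was lower in untreated and 3 (MCM2, MCM3 and MCM6) in treated libraries labelled TRPM2 KO, with sums 0.895 and 0.867 times those of Scr. These genes were named after their values were seen. In the G2 and mitosis list none of its 10 genes passed in Scr (limma) and 8 fell in TRPM2 KO, with summed levels of 2380 and 2384 in Scr and of 2285 and 1714 in TRPM2 KO. Between the genotypes, 0 of its 10 genes passed without treatment and 10 were lower in treated TRPM2 KO libraries, but none passed the interaction test. The p53 targets rose, 9 of 10 in Scr and 10 of 10 in TRPM2 KO, led by GDF15 at 4.36 and 4.54 (limma adjusted p = 5.68e-10 and 1.63e-16). Between the genotypes, 4 of the 10 (CDKN1A, BBC3, BTG2 and ZMAT3) were higher in untreated and 8 in treated libraries labelled TRPM2 KO, with summed levels 1.48 and 1.78 times those of Scr. One passed the interaction test, TP53I3 at 1.67 (limma adjusted p = 0.00066), also named, like those 4, after its values were seen. The part of the cell cycle lists in the changes of the 44 genes was not tested. In bulk libraries, fewer cells in a phase and less RNA per cell cannot be told apart.

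**Figure D4:**
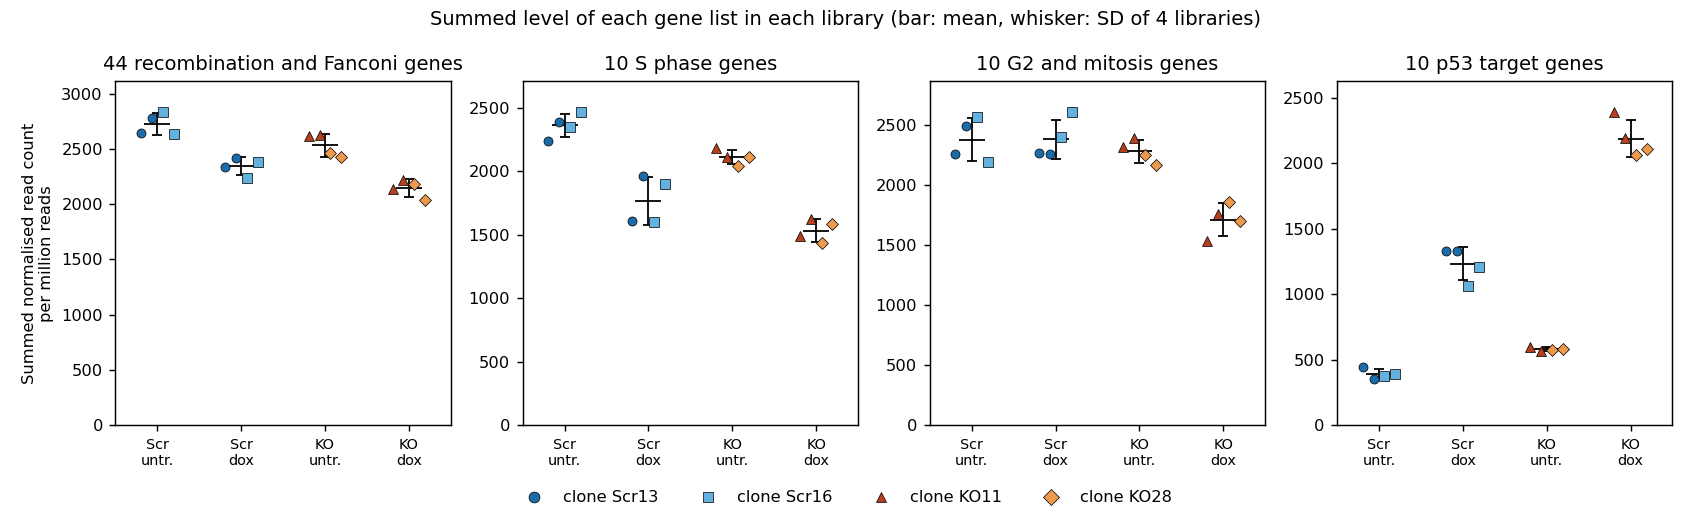
Summed normalised CPM of the 44 genes and of 3 lists of 10 genes in each library, from 0 on each axis; symbols mark the clone, bars and whiskers the mean and SD of 4 libraries. The 44 genes and the S phase genes are lower in all treated libraries, the G2 and mitosis genes are lower only in treated TRPM2 KO libraries, and the p53 targets are higher in all treated libraries.

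The cell line's own markers were present. The 10 sympathetic neuroblastoma markers, with DBH the most abundant without treatment and STMN2 after doxorubicin, summed to 6452 ± 313 normalised CPM in untreated Scr and 6732 ± 318 in untreated TRPM2 KO libraries (SD, n = 4). Their sums were 6982 ± 307 and 6652 ± 240 after doxorubicin. TH, which makes the catecholamine precursor, was too low to be tested. Of the 7 fibroblast or mesenchymal markers found, 4 were higher in untreated libraries labelled TRPM2 KO (COL1A1, DCN, LUM and VIM) and TWIST1 was lower. The list summed to 660.4 in untreated TRPM2 KO and 531.7 in untreated Scr, and to 680.9 and 544.3 after doxorubicin, with VIM the most abundant in the TRPM2 KO groups, TWIST1 in the Scr groups, and COL1A2 at 0 in 2 treated Scr libraries. The same 4 were higher and TWIST1 was lower after doxorubicin. Both epithelial markers found together stayed below 2 normalised CPM in every library, with CDH1 at 0 in all 4 libraries of KO28. The part of these markers in the differences between genotypes was not tested.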

How the data were processed

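The members, lists and tests were chosen with earlier results of these data known. Per the submitters' processing notes, reads were handled with bcl2fastq, HISAT2 2.1.0, HTSeq and edgeR on GRCh38; the use of strand in counting is not given in the sources used here. The deposited library values are a signal, counts that the authors scaled to an effective library size (normalised CPM), in 1 table without treatment and 1 after doxorubicin. All values (100%, within 0.01 of a whole) were multiples of a step of their column, which gave back whole reads. Columns with the authors' own comparisons (fold changes, p-values and q-values) were not used, and 0 columns were left unassigned.

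The deposited scaling factors multiplied to 1.03 over 16 libraries, to 1.1 without treatment and to 0.935 after doxorubicin, and lay within 0.965% of edgeR's TMM factors over 16 libraries. Doxorubicin changes and the interaction used recovered reads rescaled with those TMM factors. Genotype comparisons and printed levels used deposited values. Limma 3.58.1 with an abundance trend was fitted on log2(value + 1), which understates the change of low genes, to genes with at least 1 normalised CPM in at least 4 of the libraries compared. P-values were adjusted over all genes tested (Benjamini-Hochberg). Fits were tested on simulated data, and the outcome is not given here. Named genes were the 6 largest falls and rises in both genotypes, members that differed between genotypes, interactions, and BRCA1, BRCA2, PALB2 and FANCD2. Promoters of the 2 largest falls were to be shown. NBN had no entry. The RefSeq window of BRCA1 lies 44964 bases from the median start of its 10 GENCODE transcripts, none of which begins within 1 kb of it, and is not shown. Read intervals and floors (3 reads are 0.118 to 0.285 normalised CPM) cover counting error only. Alternatives changed the filter, pseudocount, scaling, test, block, and libraries or clones included.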

Additional observations from a re-analysis of the deposited data

Results flagged for a closer look

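Dixon's ratio was computed for the 10 named genes and the summed level in each group of 4 libraries, 44 sets in all, of which chance flags about 1 in 20. One passed the critical value. XRCC2 in treated libraries labelled TRPM2 KO was 79.86 normalised CPM in replicate 1 of KO28, against 59.31 to 62.39 in the other libraries (ratio 0.85). The cause was not tested.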

How the results depend on the processing

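Of 503 comparisons of a named member's called result, or of BRCA1 between treated genotypes, PALB2 after doxorubicin or the interaction of RAD51C, with an alternative setting, 435 kept their direction and side of the threshold, 59 lost the call, 9 gained it (all BRCA1 between treated genotypes) and 0 reversed. Results outside these also gained calls, most often BRIP1 between treated genotypes and FANCL after doxorubicin in TRPM2 KO, in 7 and 6 settings. Of the calls lost when single libraries were left out, BRIP1 in Scr lost it for 5 of 8, FANCD2 in Scr for 3, XRCC2 in TRPM2 KO for 4, and FANCD2 and RMI1 between genotypes for 5 each. Counts that moved by over 1.5 times follow, members first and all genes after.

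Without a filter on low values, 5 members and 834 genes passed after doxorubicin in Scr, 0 and 368 between genotypes without treatment, 1 member between genotypes after doxorubicin, and 5 genes for the interaction. Between genotypes after doxorubicin, 6 members passed with library size alone, 6 with DESeq2, 6 with clone as a random block and 8 with a single fit over 16 libraries. With reads summed per clone 1682 genes passed after doxorubicin in TRPM2 KO and 1 for the interaction, which gave 11 with a pseudocount of 4, 31 with DESeq2 and 5 with clone as a fixed block.

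Without clone Scr13, 1 member and 244 genes passed after doxorubicin in Scr, 0 and 330 between genotypes without treatment, 1 member between genotypes after doxorubicin, and 5 genes for the interaction. Without Scr16, 1 and 750 passed after doxorubicin in Scr, 0 and 327 between untreated genotypes, and 0 genes for the interaction. Without KO11, 5 and 949 passed after doxorubicin in TRPM2 KO, 3 members between untreated genotypes, 0 and 510 between treated ones, and 0 genes for the interaction. Without KO28, 0 members passed between untreated genotypes, 1 and 575 between treated ones, and 1 gene for the interaction.

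With single libraries left out, 6 to 11 members and 1048 to 1650 genes passed after doxorubicin in Scr, and 9 to 15 members in TRPM2 KO. Between treated genotypes 1 to 4 members and 814 to 1314 genes passed, and for the interaction 1 to 6 genes. The causes were not tested, beyond fewer samples in fits that leave some out.

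The labels number replicates within a clone, and same-numbered libraries of a clone deviated together with correlations from -0.0365 to 0.222, so the numbers were not taken to pair them. With the replicate block, 10 members passed after doxorubicin in Scr, 16 in TRPM2 KO, 1 and 4 between genotypes and 0 of 25 genes for the interaction.

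The deposited scaling, and rescaling over 16 libraries for the genotype comparisons, were added after seeing the data; the second moved FANCD2 to a limma adjusted p of 0.05003. FAN1 and RAD51B had under 70 reads in every library, which limits what could be detected.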
